A study of Rattus norvegicus with 2 samples.

Results

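A set of 10 genes in common use as reference genes for quantitative PCR was followed in RNA-seq of the rat hypothalamus before and at puberty. They were Actb, Actg1, Gapdh, Hprt1, B2m, Ppia, Tbp, Ywhaz, Pgk1 and Gusb, 10 of the 22777 genes in the mRNA table, and they were found by gene name and hold 13 annotated transcripts. The list was chosen by name, with the lower Actb level in these same libraries already known, so the change of each gene is given as a description and no test was made on it. The samples were hypothalami of female Sprague Dawley rats, frozen after removal, prepubertal (postnatal day 25) or pubertal (postnatal day 35, first estrus), untreated and, as far as the labels and methods say, of unmodified genotype. The methods give 3 rats for each stage, and the tables give a single column for it, so the comparison is of 1 library with 1 library and none of the differences below could be set against a spread between rats.

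A reference gene serves as the denominator of a quantitative PCR measurement. The amount of a target is divided by that of a gene assumed to hold its level across the samples, so any change of the reference gene passes, with its sign turned, into every target measured against it. The genes in common use come from unlike parts of cell physiology, among them the cytoskeleton, glycolysis, protein folding, purine salvage, transcription and the lysosome, and in brain many of them are also regulated with growth, metabolism or immune activity. The study divided its quantitative PCR values by β-actin, the product of Actb.

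Expression was measured as FPKM, the number of fragments of a transcript divided by its length and by the mapped fragments of the library. Values of the transcripts of a gene were summed. The log2 ratio of a gene was taken on FPKM + 1 and is positive where the pubertal level was the higher one. A gene was counted as past the limit when its log2 ratio was at least 0.32 in either direction, which is a ratio of 5 to 4 and a limit of size, not a test. FPKM times transcript length falls on whole multiples of 1 fragment among low values, and this gave a depth of about 20700000 fragments in the prepubertal library and 16300000 fragments in the pubertal library. From these units the number of fragments behind each reference gene was derived, and with it an exact binomial 95% interval of the fold, which covers counting error only and not the spread between rats. The 15 hypothalamic peptide genes looked for as a check of the tissue, such as Pmch, Oxt and Hcrt, each had a mean of at least 1 FPKM. Of these, 8 were higher and 1 was lower past the limit, with a median log2 ratio of 0.33. Among the 13804 genes with a mean of at least 1 FPKM, 7.69% were higher and 11% lower. Kiss1, a target of the quantitative PCR, is among the 8, and the 1 lower gene was Gnrh1, at 8.46 and 6.28 FPKM (-0.38).

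The levels of the reference genes spanned a 497-fold range. Ppia was the highest, at 2708 FPKM before and 3124 FPKM at puberty, followed by Gapdh at 1839 and 2012 FPKM. Actg1, Actb, Ywhaz and Pgk1 lay between 408 and 943 FPKM in both libraries, and B2m and Hprt1 between 140 and 231 FPKM. Tbp and Gusb were far below the others, at 8.46 and 8.90 FPKM and at 6.13 and 5.60 FPKM. By mean FPKM, Ppia ranked 23 and Gapdh 35 among the 22777 genes, Actb ranked 157, and Tbp and Gusb ranked 8743 and 10070. FPKM is per length, so these levels can be set side by side between genes.

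**Figure D1:**
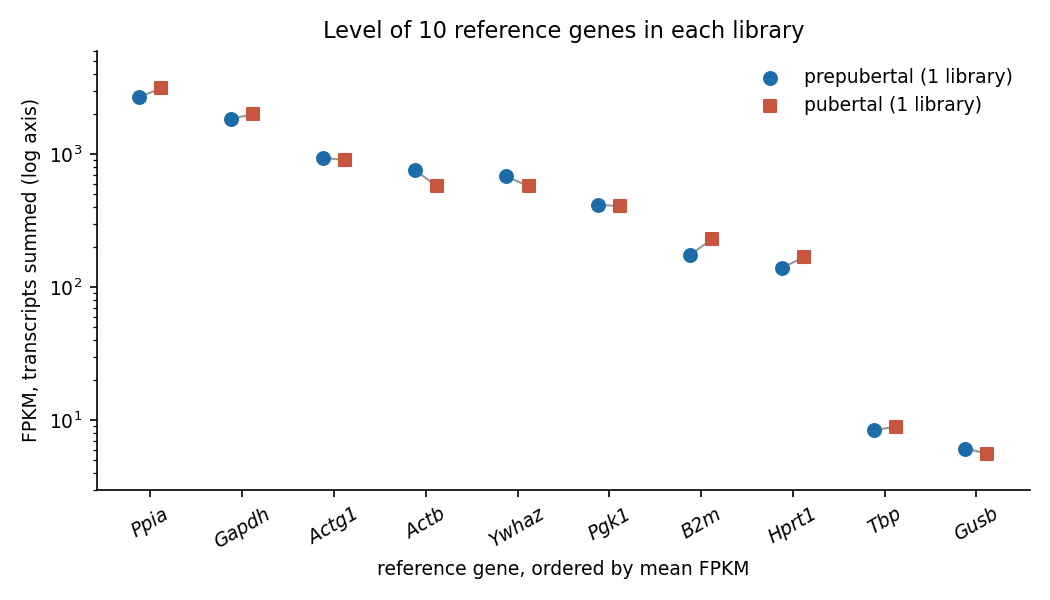
FPKM of the 10 reference genes on a log axis, ordered by their mean, with a circle for the prepubertal library and a square for the pubertal library. Each point is 1 library, and the lines between the points of a gene are short beside the distance from Pgk1 at 408 to 417 FPKM down to Tbp at 8.46 to 8.90 FPKM.

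Of the 10 genes, 2 were past the limit, B2m as the higher and Actb as the lower at puberty. This is 20% of the list, beside 18.6% of the 13804 genes with a mean of at least 1 FPKM, with 7.69% higher and 11% lower. At 1.1-fold, 5 of the 10 genes were past it (Actb, Ywhaz, Ppia, Hprt1 and B2m), beside 54.5% of all genes, and at 1.5-fold and 2-fold it was 0 of 10, beside 4.18% and 0.956%. The median absolute log2 ratio was 0.17 for the reference genes and 0.15 for all 13804 genes, so both the share past the limit and the size of the difference were near those of all genes. The median signed log2 ratio was 0.02 for the list, with 5 genes above 0 and 5 below, and -0.01 for all genes. The sign of the list's median turned with the scaling, to -0.04 after scaling to equal sums. Since 8 of the 10 genes lie above 100 FPKM, where counts are large, the genes of that level were also taken alone. Of 1177 such genes 15.7% were past the limit, and so were 2 of the 8 reference genes. The share was 24.9% among genes of 1 to below 10 FPKM, where Tbp and Gusb lie within the limit, and 14.2% from 10 to below 100 FPKM, where there was no reference gene.

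**Figure D2:**
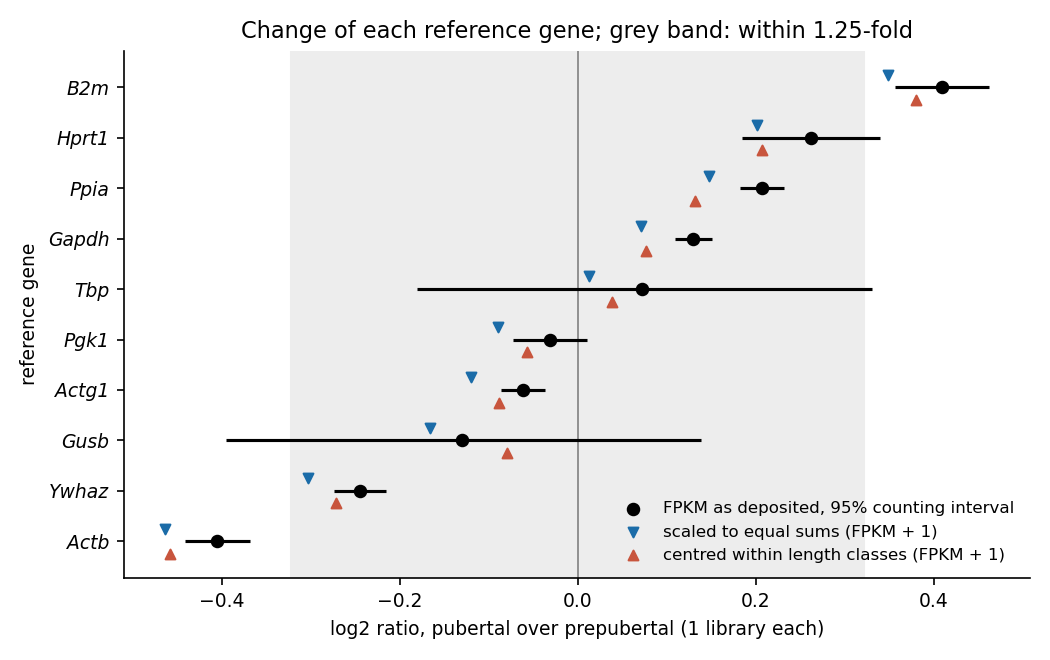
Log2 ratio of each reference gene, pubertal over prepubertal, 1 library each. Black points are FPKM as deposited with their 95% counting interval, triangles show the ratios of FPKM + 1 after scaling both libraries to equal sums and after centring within classes of transcript length, and the grey band marks ratios within 0.32 of 0. Actb and B2m lie outside the band in opposite directions under all of these, and the intervals of Tbp, Gusb and Pgk1 span 0.

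The actins are the building blocks of the actin filaments of the cytoskeleton. Actb (ENSRNOG00000034254), which encodes the β isoform, was at 763 FPKM before and 576 FPKM at puberty, from about 16025 and 9500 fragments. Its FPKM was 0.755 times as high at puberty, with a counting interval of 0.736 to 0.775, and its log2 ratio was -0.40. Of 283 genes within 2-fold of its mean level, 86.6% had a smaller change. Actg1 (ENSRNOG00000036701), which encodes the γ isoform, was at 943 and 904 FPKM, a log2 ratio of -0.06, while 14.4% of 201 genes of like level had a smaller change. After scaling to equal sums the log2 ratio of Actg1 was -0.12. The ratio of Actg1 to Actb, which does not depend on how the libraries were scaled, was 1.24 before and 1.57 at puberty. These actins are non-muscle isoforms of very similar sequence, and RefSeq (GRCr8) names 10 pseudogenes after Actb and 11 after Actg1, so that reads may have been shared among such copies and both levels are uncertain to that extent.

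Among 22 genes that build or regulate actin filaments, 0 were higher and 1 was lower past the limit, with a median log2 ratio of -0.02, beside -0.01 for all genes. The one was Actr2, a subunit of the Arp2/3 complex that nucleates branched filaments, at 186 and 136 FPKM (-0.45). The highest was Tmsb10, a thymosin that binds actin monomers, at 1784 and 1966 FPKM (0.14). Srf, the transcription factor that binds the CArG box of actin promoters, had 10.2 FPKM in both libraries (0.00). Of the other actin isoforms, Acta1, the skeletal muscle actin, was the 1 gene above a mean of 1 FPKM, at 8.41 and 6.72 FPKM (-0.29).

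Ywhaz (ENSRNOG00000008195) encodes the ζ isoform of the 14-3-3 proteins, adaptors that bind phosphorylated proteins. It went from 681 to 575 FPKM, 0.844 times as high at puberty (counting interval 0.827 to 0.861), a log2 ratio of -0.24. It lay on the same side of 0 as most of its family. Of the 5 other 14-3-3 genes above 1 FPKM, 3 were lower past the limit and 0 were higher, with a median log2 ratio of -0.41. Ywhag (γ) went from 354 to 213 FPKM (-0.73), Ywhae (ε) from 231 to 145 FPKM (-0.67) and Ywhab (β) from 169 to 127 FPKM (-0.41). Ywhaq (θ) alone lay above 0, at 516 and 531 FPKM (0.04).

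Gapdh and Pgk1 catalyse neighbouring steps of glycolysis. Gapdh (ENSRNOG00000018630) was at 1839 FPKM before and 2012 FPKM at puberty, 1.09 times as high (1.08 to 1.11), a log2 ratio of 0.13. With equal sums it was 0.07, and within length classes 0.08. Pgk1 (ENSRNOG00000002467) was at 417 and 408 FPKM, a log2 ratio of -0.03, and 9.88% of 415 genes of like level had a smaller one. This was the smallest of the 10 genes in FPKM as deposited, but with equal sums it was -0.09, and Tbp was the smallest then (0.01) and within length classes (0.04). Its counting interval, 0.951 to 1.01, spans 1. The main Pgk1 transcript, of 1730 nt, held 393 FPKM in both libraries, while a 567 nt transcript went from 23.2 to 14.2 FPKM. RefSeq names 79 pseudogenes after Gapdh and 8 after Pgk1. Of the other 15 glycolytic enzymes, 14 stayed within the limit and 1 was higher, with a median log2 ratio of 0.00. That one was Eno1, the ubiquitous enolase, from 450 to 604 FPKM (0.42). Ldha, a subunit of lactate dehydrogenase, was at 304 FPKM in both libraries, and Hk2, a hexokinase of low level here, at 2.37 and 1.73 FPKM (-0.30).

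Ppia (ENSRNOG00000006423) encodes cyclophilin A, a peptidyl-prolyl isomerase that assists protein folding. It went from 2708 to 3124 FPKM, 1.15 times as high (1.13 to 1.17), a log2 ratio of 0.21, all of it in its 743 nt transcript, since the 623 nt transcript was listed at 0 in both libraries. The log2 ratio was 0.15 with equal sums and 0.13 within length classes. Ppia lay above each of the 11 other cyclophilins with a mean of at least 1 FPKM, whose log2 ratios ran from -0.33 for Ppic (4.04 and 3.02 FPKM) to 0.17 for Ppil1 (33.7 and 38.1 FPKM), with a median of 0.03. Ppic was the 1 gene of the 11 past the limit. RefSeq names 15 pseudogenes after Ppia.

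Hprt1 (ENSRNOG00000031367) encodes the enzyme that salvages hypoxanthine and guanine, and its loss disturbs the brain in particular. It went from 140 to 168 FPKM, 1.20 times as high (1.14 to 1.26), a log2 ratio of 0.26, and 82.8% of 1175 genes of like level had a smaller change. Hprt1 lay above each of the 12 other genes of purine salvage and interconversion, which ran from -0.40 to 0.11 with a median of -0.04. The highest was Impdh2, an enzyme of guanine nucleotide synthesis, at 43.0 and 46.4 FPKM, and the lowest its paralog Impdh1, at 16.4 and 12.2 FPKM. Impdh1 and Ampd2 were past the limit, both lower, and Gda, guanine deaminase, was at 35.1 and 35.2 FPKM.

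B2m (ENSRNOG00000017123) encodes β2-microglobulin, the light chain of the class I molecules that present peptides to T cells. It went from 174 to 231 FPKM, from about 5683 and 5922 fragments, and was 1.33 times as high at puberty (1.28 to 1.38). Its log2 ratio of 0.41 was near that of Actb in size, and smaller in size than that of Actb with equal sums (0.35 against -0.46) and within length classes (0.38 against -0.46), while 93.3% of 876 genes of like level had a smaller change. Of 11 genes for class I heavy chains and their loading, 4 were higher and 1 was lower past the limit, with a median log2 ratio of 0.12. Psmb8, a subunit of the immunoproteasome, was highest, from 3.77 to 8.72 FPKM (1.03). The class I heavy chain genes RT1-A2 and RT1-A1 went from 7.37 to 14.3 FPKM (0.87) and from 1.86 to 4.07 FPKM (0.83), and as members of a multigene family they can have shared fragments. The fourth was Tap2, a subunit of the peptide transporter, from 1.99 to 2.97 FPKM over 2 gene IDs (0.41). The other genes that serve class I loading in particular were within the limit, at 0.27 for Tapbp, 0.12 for Psmb9, 0.10 for Tap1 and -0.12 for Erap1. Of the chaperones that also serve other proteins, Calr was at 246 and 245 FPKM (-0.01) and Pdia3 was lower, at 63.1 and 49.1 FPKM (-0.36).

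Markers of other cell types were read beside B2m. Of the 9 microglial markers above 1 FPKM, 1 was higher past the limit (Aif1, 0.49) and 8 were within it. Their log2 ratios lay between 0.04 for C1qb and that of Aif1, with a median of 0.18, and Cd68, below 1 FPKM, was at 0.511 and 0.390 FPKM. The 10 listed microglial markers summed to 282 FPKM before and 332 FPKM at puberty. Red blood cell genes also differed, as the 6 found summed to 6839 and 13086 FPKM, with 5 of 6 past the limit and Hbb from 2130 to 5898 FPKM. Of 7 endothelial markers 1 was higher past the limit, Slco1a4 at 29.0 and 43.5 FPKM (0.57), and 5 had log2 ratios below 0, with a median of -0.15 and a sum of 141 and 146 FPKM. The part of these cells in the B2m difference was not tested, and in whole tissue more cells of a type and more RNA per cell cannot be told apart. Pituitary tissue can adhere to a dissected hypothalamus, and of its markers Prl was listed at 0 before and 3.40 FPKM at puberty and Gh1 at 0.872 and 4.09 FPKM. Both were past the limit, while Cga (0.27) and Tshb (0.14) were within it. Lhb, at 1.44 and 1.29 FPKM, lay on the other side of 0, as did Pou1f1, at 0.155 and 0.0565 FPKM, and Fshb was listed at 0 before and at 0.396 FPKM at puberty. The 7 pituitary markers summed to 31.8 and 44.5 FPKM, and their part was not tested either.

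Tbp (ENSRNOG00000001489) encodes the TATA-binding protein, which places RNA polymerase II at promoters. It was at 8.46 and 8.90 FPKM, a log2 ratio of 0.06. This rests on about 283 and 234 fragments, and the counting interval of its fold, 0.882 to 1.26, reaches from a lower to a higher level. Gusb (ENSRNOG00000000913), the lysosomal β-glucuronidase, was at 6.13 and 5.60 FPKM, a log2 ratio of -0.11, from about 281 and 202 fragments (interval 0.760 to 1.1). Both intervals span 1, so for these genes no difference was detectable at this depth. RefSeq names 0 pseudogenes after Tbp, Gusb and B2m. Of 18 TBP-associated and general transcription factors, 1 was higher and 1 lower, Gtf2b from 32.4 to 43.7 FPKM (0.42) and Taf4 from 2.97 to 2.14 FPKM (-0.34), with a median log2 ratio of 0.05. Of 17 other lysosomal hydrolases 16 stayed within the limit with a median log2 ratio of 0.00, and the exception was Neu1, a sialidase, from 12.7 to 8.67 FPKM (-0.50).

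**Figure D3:**
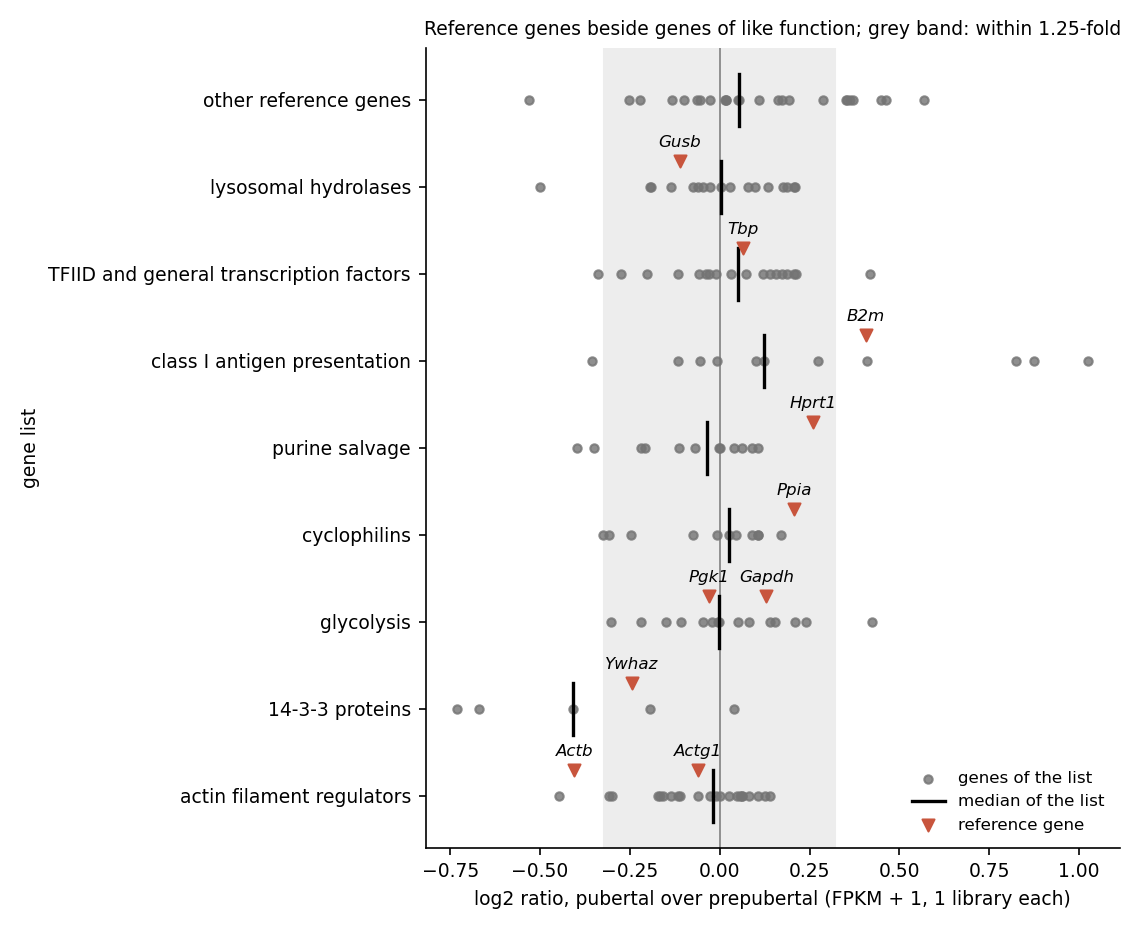
Log2 ratio (FPKM + 1, pubertal over prepubertal, 1 library each) of genes of like function, one row per list, with a grey dot per gene above a mean of 1 FPKM, a black bar at the list's median and a red triangle for each reference gene. Ppia and Hprt1 lie to the right of every gene of their lists, Ywhaz lies left of 0 with 4 of 5 other 14-3-3 genes, and B2m lies beside Tap2 with Psmb8, RT1-A2 and RT1-A1 farther to the right.

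Promoter sequences were at hand in RefSeq (build GRCr8, not the build of the expression files) for 7 of the 10 genes, and none is shown for Actb, Ywhaz and Pgk1. The 250 bases before the annotated start are printed for 5 genes that show how unlike the control regions of reference genes are, each in its gene's direction and in lower case. In B2m, capitals mark the core of the interferon-stimulated response element, searched as GAAA, any 2 bases and GAAA. In Actg1 they mark a CArG box, the site that Srf binds, in Gapdh and Ppia the TATA box TATAAA, and in Hprt1 the GC box GGGCGG.
B2m (chr3:129549080-129549329, plus strand): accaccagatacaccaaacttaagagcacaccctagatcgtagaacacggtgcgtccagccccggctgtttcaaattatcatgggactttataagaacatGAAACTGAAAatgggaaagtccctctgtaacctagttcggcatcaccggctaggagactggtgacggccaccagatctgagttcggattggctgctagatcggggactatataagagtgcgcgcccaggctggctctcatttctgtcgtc
Actg1 (chr10:106120952-106121201, minus strand): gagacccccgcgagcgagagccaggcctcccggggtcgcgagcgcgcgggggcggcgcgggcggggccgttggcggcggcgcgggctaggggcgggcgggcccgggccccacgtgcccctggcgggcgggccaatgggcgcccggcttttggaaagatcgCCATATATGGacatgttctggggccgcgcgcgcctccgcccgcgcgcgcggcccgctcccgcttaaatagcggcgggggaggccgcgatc
Gapdh (chr4:159652468-159652717, minus strand): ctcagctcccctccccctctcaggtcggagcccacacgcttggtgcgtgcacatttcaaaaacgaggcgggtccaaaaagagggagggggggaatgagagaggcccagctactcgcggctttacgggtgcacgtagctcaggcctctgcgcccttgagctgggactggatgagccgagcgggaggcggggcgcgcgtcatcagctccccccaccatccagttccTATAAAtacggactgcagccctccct
Ppia (chr14:85492966-85493215, plus strand): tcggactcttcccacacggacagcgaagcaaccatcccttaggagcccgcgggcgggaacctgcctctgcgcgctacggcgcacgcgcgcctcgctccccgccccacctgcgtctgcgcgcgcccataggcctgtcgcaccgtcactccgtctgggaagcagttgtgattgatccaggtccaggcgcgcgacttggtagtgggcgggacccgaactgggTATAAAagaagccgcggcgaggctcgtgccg
Hprt1 (chrX:137655494-137655743, plus strand): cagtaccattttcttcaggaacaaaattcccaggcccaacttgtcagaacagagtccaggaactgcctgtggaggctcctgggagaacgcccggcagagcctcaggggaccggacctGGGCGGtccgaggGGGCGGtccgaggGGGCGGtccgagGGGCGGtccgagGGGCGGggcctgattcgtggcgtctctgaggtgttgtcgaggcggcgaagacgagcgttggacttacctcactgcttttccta

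The motifs were searched on both strands, and a match is a run of letters and not a shown site. The TATA box letters were found in B2m, Gapdh and Ppia, 3 of the 7 promoters, and in 12.9% of 33469 rat promoters of this length. They lie 26 bases before the start in Gapdh and 31 bases in Ppia, counted from the first letter, in the direction of the gene. In B2m they lie on the opposite strand, 163 bases before the start, upstream of the interferon element core. Only these exact letters were searched, so the run TATATAAG nearer the start of B2m, in its direction, was not counted. The interferon element core was found in B2m alone among the 7 and in 3.41% of all promoters, 150 bases before the start. The CArG box was found in Actg1 alone, 90 bases before the start, and in 1.5% of all promoters. A CArG box can hold the letters TATAAA, which were not found in Actg1. The CCAAT box was found in Actg1 and B2m and in 34.0% of all promoters. Of the class I genes with an entry, Tap1 held the interferon element core, and RT1-A1, RT1-A2, Psmb8 and Psmb9 did not in these windows. GGGCGG was found in Actg1, Hprt1, Ppia and Tbp and in 30.5% of all promoters, and Hprt1 holds it 5 times, from 133 bases before the start. Genes with a mean of at least 1 FPKM and 1 promoter entry held GGGCGG more often, at 59.7%, and CCAAT at 35.2%. Their share was 6.02% for TATAAA, 2.55% for the interferon element core and 1.05% for the CArG box. Of these genes, 226 hold the interferon element core. Of the 226, 23.5% were past the limit with a median log2 ratio of 0.06, beside 16.5% and -0.01 for the 8629 without it. With TATAAA it was 22.9% of 533 genes, and 16.3% of 8322 genes without. The share was 19.4% with and 16.7% without the CArG box, 16.3% with and 16.9% without CCAAT, and 15.6% with and 18.3% without GGGCGG.

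The ratio of 2 reference genes within a library is free of any scaling, and its change between the libraries is the error that would follow from exchanging one for the other. Over the 45 pairs the median change was 1.20-fold, and 34 pairs had changed at least 1.1-fold, 18 at least by a ratio of 5 to 4 and 4 at least 1.5-fold. These changes are of plain FPKM, and with 1 added to each FPKM 16 pairs changed by at least a ratio of 5 to 4. The widest was B2m over Actb, 0.228 before and 0.401 at puberty, a change of 1.76-fold. It was followed by Hprt1 over Actb (1.59-fold), B2m over Ywhaz (1.57-fold) and Ppia over Actb (1.53-fold). The closest pair was Pgk1 and Actg1, at a ratio of 0.442 and 0.451 (1.02-fold), then Hprt1 and Ppia (1.04-fold) and Gapdh and Tbp (1.04-fold). Measured by the mean absolute log2 difference to the other 9 genes, Tbp and Pgk1 stood nearest to the rest (0.22 each), then Actg1 (0.22) and Gapdh (0.23), and Actb (0.47) and B2m (0.43) stood farthest. The mean log2 ratio of FPKM over all 10 genes was 0.02, from which Actb differed by -0.43 and B2m by 0.39.

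**Figure D4:**
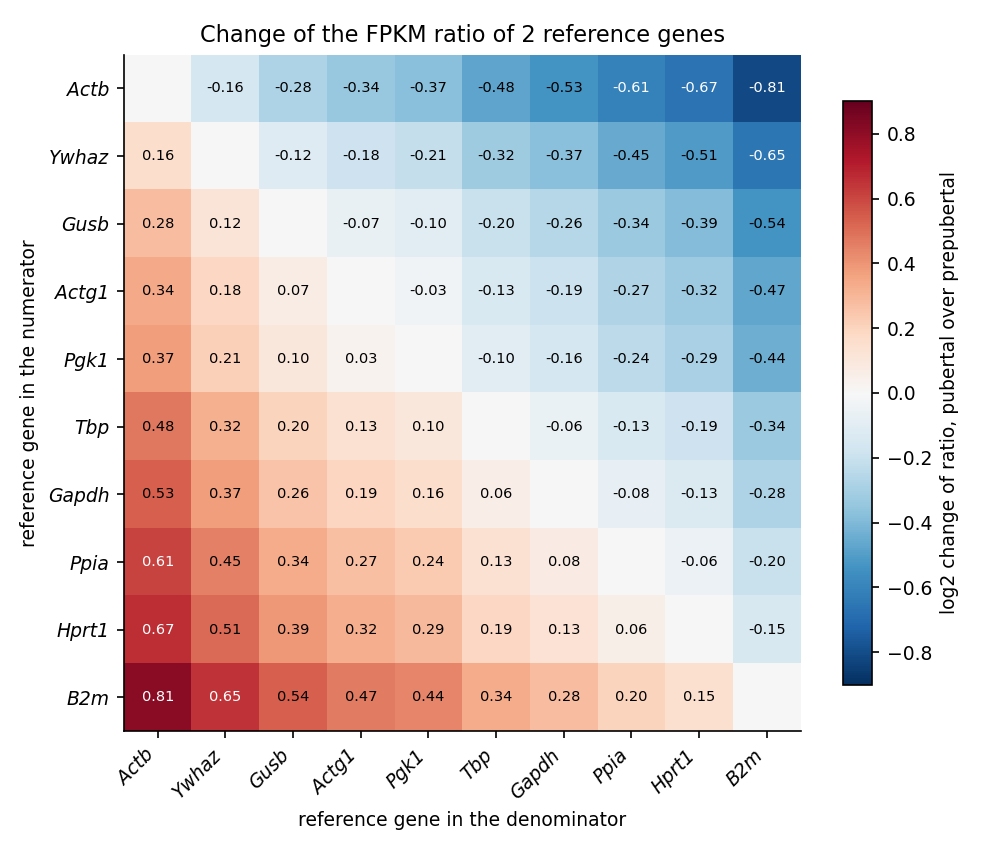
Change of the FPKM ratio of each pair of reference genes, as log2 of the pubertal over the prepubertal ratio, with the gene in the row as numerator and the gene in the column as denominator, ordered by their own ratios. The corner cells, B2m and Actb, hold the widest change of 0.81, and cells near the diagonal, such as Pgk1 and Actg1 at 0.03, the narrowest.

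The targets of the quantitative PCR were genes and lncRNA loci. In the RNA-seq data each was set against each of the 10 reference genes, by taking the log2 ratio of the reference gene from that of the target. These differences were taken on FPKM + 1, and since the 1 shrinks the ratio of a target near or below 1 FPKM, the differences of plain FPKM, which are the division itself, are given where they change a direction. Of the 9 targets, 4 were higher at puberty with no reference gene, 7 relative to Actb and 2 relative to B2m, or 3 relative to B2m in plain FPKM. For 5 targets the direction depended on the reference gene, and for 4 in plain FPKM. Igfbp5, a binding protein of insulin-like growth factors, went from 27.2 to 23.4 FPKM, and its log2 ratio was 0.20 relative to Actb, -0.18 relative to Pgk1, -0.34 relative to Gapdh and -0.62 relative to B2m. It was higher relative to 2 reference genes and lower relative to 8. Igfbp6, a related binding protein, was at 0.19 relative to Actb and -0.18 relative to Pgk1, from about 98 and 65 fragments. It was higher relative to 2 reference genes on FPKM + 1 and to 1 in plain FPKM, and the counting interval of its own fold, 0.608 to 1.17, spans 1. The lncRNA locus XLOC_446331 went from 0.526 to 0.798 FPKM on about 16 and 19 fragments, with a counting interval of its fold from 0.737 to 3.15. It was the 1 target that changed direction with the reference gene on FPKM + 1 alone. Its log2 ratio ran from -0.17 relative to B2m to 0.64 relative to Actb on FPKM + 1, above 0 for 8 of the 10, and from 0.19 to 1.01 in plain FPKM, above 0 for 10 of 10. XLOC_414038 ran from -0.33 to 0.48 and XLOC_113511 from -0.46 to 0.35, and the counting intervals of their own folds, 0.844 to 1.33 and 0.764 to 1.21, also span 1.

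The other 4 targets kept the sign of their log2 ratio whichever of the 10 genes was used. Kiss1, the gene of the kisspeptins that drive the neurons of gonadotropin-releasing hormone, was higher, from 1.46 to 3.78 FPKM, with log2 ratios from 0.55 relative to B2m to 1.36 relative to Actb, or from 0.97 to 1.78 in plain FPKM. Tgfbi, an extracellular matrix protein induced by TGF-β, went from 6.68 to 9.29 FPKM and ran from 0.02 relative to B2m to 0.83 relative to Actb. The counting interval of its own fold, 1.20 to 1.62, holds that of B2m, 1.28 to 1.38. Its direction relative to B2m is thus not resolved. Igf1, insulin-like growth factor 1, went from 6.01 to 4.30 FPKM and ran from -0.81 relative to B2m to 0.00 relative to Actb. The latter was -0.08 in plain FPKM. Igf1 rests on about 139 and 85 fragments, and the counting interval of its own fold, 0.509 to 0.975, leaves out 1. That interval holds the one of Actb, 0.736 to 0.775, so the direction relative to Actb is not resolved. By quantitative PCR the study measured Igf1 in cultured hypothalamic cells after silencing XLOC_446331, and it reports no such comparison of the stages. XLOC_181783 was listed at 4.67 FPKM before and at 0 at puberty. For Kiss1 and XLOC_181783 neither a fragment number nor a counting interval was derived. The counting error behind their differences is thus not known. No quantitative PCR values were used here.

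**Figure D5:**
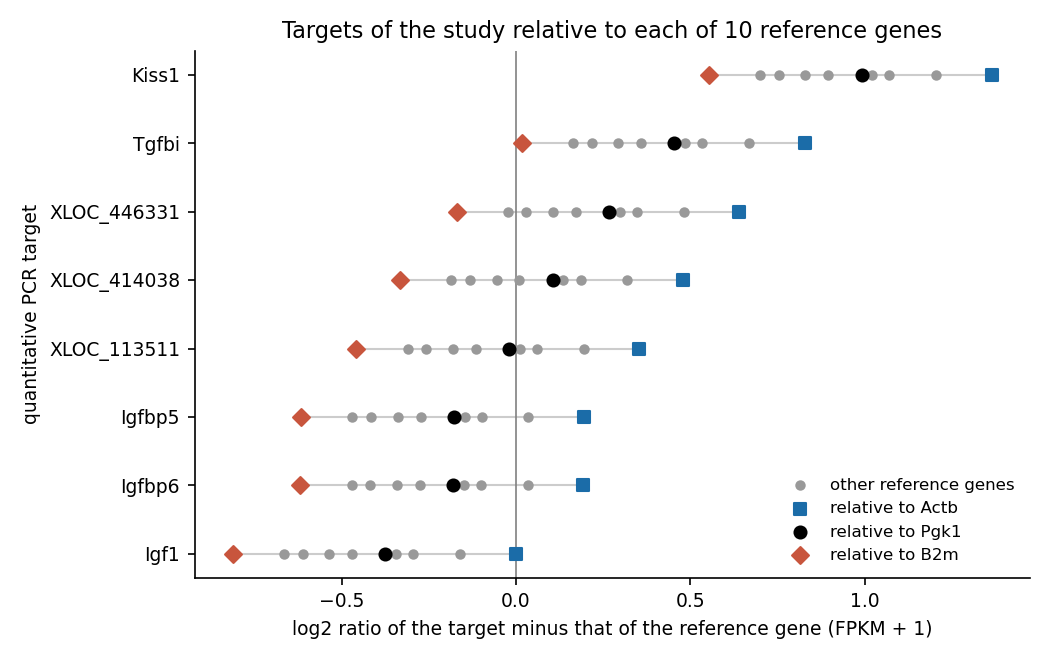
Log2 ratio of 8 quantitative PCR targets minus that of each of the 10 reference genes (FPKM + 1, 1 library per stage), with squares for Actb, black circles for Pgk1, diamonds for B2m and grey dots for the others. Actb gives the highest and B2m the lowest value in each row by construction, since their own log2 ratios are the lowest and the highest of the 10. The rows of Igfbp5, Igfbp6 and the 3 lncRNA loci cross 0, that of XLOC_446331 on FPKM + 1 but not in plain FPKM (0.19 relative to B2m). XLOC_181783, listed at 0 at puberty, is left out.

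Other genes in common use as reference genes were read from a wider list, of which 25 of 26 were found and each had a mean of at least 1 FPKM. By the same limit 7 of the 25 were higher, beside 7.69% of the 13804 genes with a mean of at least 1 FPKM. The median log2 ratio of the list was 0.05. The 7 were Rpl19 (845 and 1253 FPKM, 0.57), Rpl32 (0.46), Rpl13a (0.45), Psmb4, a proteasome subunit (0.37), Eef1a1, an elongation factor of translation (1991 and 2563 FPKM, 0.36), Rps29 (0.35) and Rps18 (0.35). Thus 5 of the 7 are ribosomal protein genes, which have near-identical copies, and Rpl19, Rpl32 and Rps29 were summed over 2, 2 and 4 gene IDs of the same name. Rplp0, the only other ribosomal protein gene found in the list, was within the limit, at 457 and 516 FPKM (0.17). The smallest difference was that of Rer1, a protein of the early secretory pathway, at 77.6 and 78.4 FPKM (0.01), and Atp5b, a subunit of the mitochondrial ATP synthase, was at 1221 and 1236 FPKM (0.02).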

How the data were processed

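Hypothalamic RNA was depleted of ribosomal RNA and sequenced as strand-specific paired-end libraries. The authors used TopHat for alignment, Scripture and Cufflinks for assembly, and Cuffdiff to estimate FPKM (Cufflinks and Cuffdiff 2.1.1 and Rnor_5.0 per the submitters' processing notes). The study's methods name the annotation of a later rat assembly, and which build the tables follow was not settled. The deposited tables hold FPKM for 26324 mRNA and 4052 lncRNA transcripts, 1 column per stage. How the rats were combined is not given in the sources used here. The authors' comparison table also holds log2 ratios, p-values and q-values, which were not used. Its transcript lengths, in nt, were used as deposited.

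FPKM of 13 mRNA transcripts differed between the tables, 0 of them of the reference genes, and the mRNA table was used. Transcripts were summed per gene, a pseudocount of 1 was added, and genes with a mean FPKM of at least 1 formed the background. The unit of 1 fragment was fitted to transcripts of 600 to 3000 nt of genes with 1 transcript, with length reduced by 255 nt in both libraries. Of 1618 and 1731 low values, 96.0% and 95.7% lay within 0.1 of a whole fragment number. Fragment numbers were given for transcripts of at least 500 nt. For genes with several transcripts the interval used an effective fragment number (the squared sum of FPKM over its counting variance) and leaves out error in assigning fragments to transcripts. The depth in the pubertal library was the lower by 1.27-fold. With 1 library per stage no test was made. The members and lists were chosen with earlier results of these data known. In each list the genes with the largest rise, the largest fall and the smallest change were to be named. Others, such as the remaining genes past the limit, were named after their values were seen.

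Of the marker lists not described in the report, the median log2 ratio was 0.21 for choroid plexus, -0.04 for smooth muscle, -0.15 for oligodendrocytes, -0.09 for immature neurons and 0.00 for astrocytes. With a pseudocount of 0.1 the median of the choroid plexus list was 0.31. List genes that were not found by name, such as Acta2, were not analysed here. The result of 1 gene of the wider list of reference genes is not reported here. The fit of the unit, the folds and the intervals were tested on simulated data. The scripts ran under Python 3.11.15 (scipy 1.17.1, numpy 2.4.6, pandas 2.3.3), and figures were drawn by matplotlib 3.10.9.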

Additional observations from a re-analysis of the deposited data

How the results depend on the processing

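The log2 ratios of the 10 reference genes were recomputed with a pseudocount of 0.1, after scaling to equal medians (a shift of 0.01 on the log2 scale) and to equal sums (a factor of 0.960 on the pubertal library), from the FPKM of the comparison table, from the transcript with the highest FPKM and after centring within 10 classes of transcript length. The sign was kept in 59 of 60 values. The exception was Pgk1, at 0.00038 from its main transcript. Of the 60 values 49 moved by no more than the counting error. Both counts include values that could not move. The comparison table holds the same FPKM for these genes, and a gene with 1 transcript above 0 is unchanged by taking its highest transcript. With equal sums Actg1 moved to -0.12, Pgk1 to -0.09, Gapdh to 0.07, Ppia to 0.15 and Ywhaz to -0.30, and the median of the 10 genes to -0.04, and within length classes Gapdh moved to 0.08, Ppia to 0.13 and the median to -0.01. B2m and Actb were the 2 genes past the limit of 0.32 (log2) under each of these 6 alternatives, and the range was 0.35 to 0.41 for B2m and -0.46 to -0.40 for Actb. The count of 2 genes became 5 at 1.1-fold and 0 at 1.5-fold and at 2-fold, by the construction of the limit. Tbp took the place of Pgk1 as the gene of smallest change with equal sums (0.01) and within length classes (0.04). Longer transcripts were lower at puberty, with a median log2 ratio of 0.07 in the shortest and -0.13 in the longest class. Without a pseudocount 3 targets in place of 2 were higher relative to B2m and 4 in place of 5 changed direction with the reference gene. The background by level was added after seeing the data. No paired analysis was possible because there is 1 library per stage, and for the same reason no library could be left out.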
